A study of Mus musculus with 12 samples.

Results

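The clustered protocadherins are cell-surface cadherins encoded side by side in 3 neighbouring clusters, alpha, beta and gamma. All genes of these clusters were taken by their symbols, whatever their level, which gave 58 of the 21878 genes in the tables. They are 12 alpha, 2 alpha C-type, 22 beta, 12 gamma A, 7 gamma B and 3 gamma C-type genes. RNA came from the hippocampus of Presenilin1/2 conditional double knockout mice (DKO) and wild-type mice (WT), killed under sodium pentobarbital at 9 p.m. (Night) or 9 a.m. (Day). The groups were Night DKO, Night WT, Day DKO and Day WT, with 3 libraries each. Neither the promoter that drives the recombinase, nor the age or strain of the mice, nor whether libraries come from separate mice is stated in the labels. The p-values therefore cover the spread among these samples alone, which may be technical. An exception is Night WT replicate 1, which differed from its group in male-specific genes (below). The series title concerns circadian disruption and a memory deficit that depends on the hour in these knockout mice.

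Each alpha and gamma gene has its own promoter and its own large variable exon, which encodes the extracellular cadherin repeats, the transmembrane segment and a short stretch of cytoplasmic tail. That exon is spliced to small constant exons shared by the whole cluster, whereas beta genes are single exons with no constant part. Single neurons choose a few of the alternate isoforms, through CTCF and cohesin bound at the chosen promoters, and the resulting mixture of homophilic surface proteins lets a neuron tell its own branches from those of its neighbours. The C-type isoforms lie at the end of the alpha and gamma clusters and are under separate control. The proteins are cleaved by ADAM10 and then by gamma-secretase, the protease whose catalytic subunit is a presenilin, and their intracellular fragment is released.

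In build GRCm38.p6 all 58 genes lie on chromosome 18, and the 57 matched by name in the GENCODE annotation lie on its plus strand. The RefSeq gene spans put alpha at 36930285 to 37188897, beta at 37264998 to 37521419 and gamma at 37661775 to 37841873. All but 1 are protein-coding genes; Pcdhgb8 is annotated as a transcribed pseudogene. Levels are in FPKM, that is fragments scaled by transcript length and by the size of the library. The tables hold no read counts, which leaves the depth unknown, and counting error could not be computed. The 12 libraries summed to between 151058.5 and 175692.3 FPKM. Psen2, a target of the knockout, stood at 0.275 to 0.594 FPKM in the 6 DKO libraries and at 1.47 to 3.64 FPKM in the 6 WT libraries. Summed markers of excitatory neurons reached at least 581.4 FPKM in every library, those of interneurons 306.5 FPKM and those of hippocampal subfields 129.4 FPKM. A pair of libraries stood apart. Night WT replicate 1 had the male-specific gene Ddx3y at 0.0225 FPKM, against 6.83 to 8.56 FPKM in the other 11. Summed over 4 male-specific genes it had 0.0308 FPKM, against 16.95 and 17.91 FPKM in the other Night WT libraries. It therefore came from another mouse than they did. Night DKO replicate 1 had the microglial gene Tyrobp at 19.8 FPKM, against 37.26 to 59.99 FPKM in the other DKO libraries and 17.1 to 22.9 FPKM in WT.

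Averaged over the 12 libraries, the C-type genes Pcdhgc5 (13.5 FPKM), Pcdhgc3 (11.3 FPKM) and Pcdhac2 (6.51 FPKM) stood above the other 55 genes, which reached 3.29 FPKM at most. Pcdhgc5 protein binds a GABA-A receptor subunit, Pcdhgc3 promotes dendrite branching in the mouse cortex, and Pcdhac2 is needed for the tiling of serotonergic axons. The other C-type genes were lower: Pcdhgc4, needed for the survival of many interneurons, averaged 2.45 FPKM and Pcdhac1 averaged 0.711 FPKM. C-type genes made up 47.1% ± 2.53 of the alpha total and 43.7% ± 3.12 of the gamma total (SD over 12 libraries). The alpha total leaves out the read-through genes that begin at alpha exons, which are described below. Its C-type share therefore depends on how fragments were divided between those genes and the alpha genes.

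Among the remaining genes the highest mean level was 1.45 FPKM in alpha (Pcdha12), 3.04 FPKM in beta (Pcdhb17), 3.29 FPKM in gamma A (Pcdhga11) and 3.07 FPKM in gamma B (Pcdhgb6). The lowest were Pcdha1 at 0.218 FPKM, Pcdhb1 at 0.0474 FPKM, Pcdhga1 at 0.990 FPKM and Pcdhgb8 at 0.552 FPKM. The median gene of each class stood at 0.677 FPKM in alpha, 1.28 FPKM in beta, 1.98 FPKM in gamma A and 1.51 FPKM in gamma B. The alpha class had the lowest median of the 4. Of the 58 genes, 22 averaged under 1 FPKM and 36 averaged 1 FPKM or more. No gene was listed at 0 in all libraries, and only Pcdhb1 was listed at 0 in any (Day DKO replicate 2). A gene was tested where it reached 0.5 FPKM in at least 3 libraries. This left 54; Pcdha1, Pcdha7, Pcdha8 and Pcdhb1 did not pass.

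**Figure D1:**
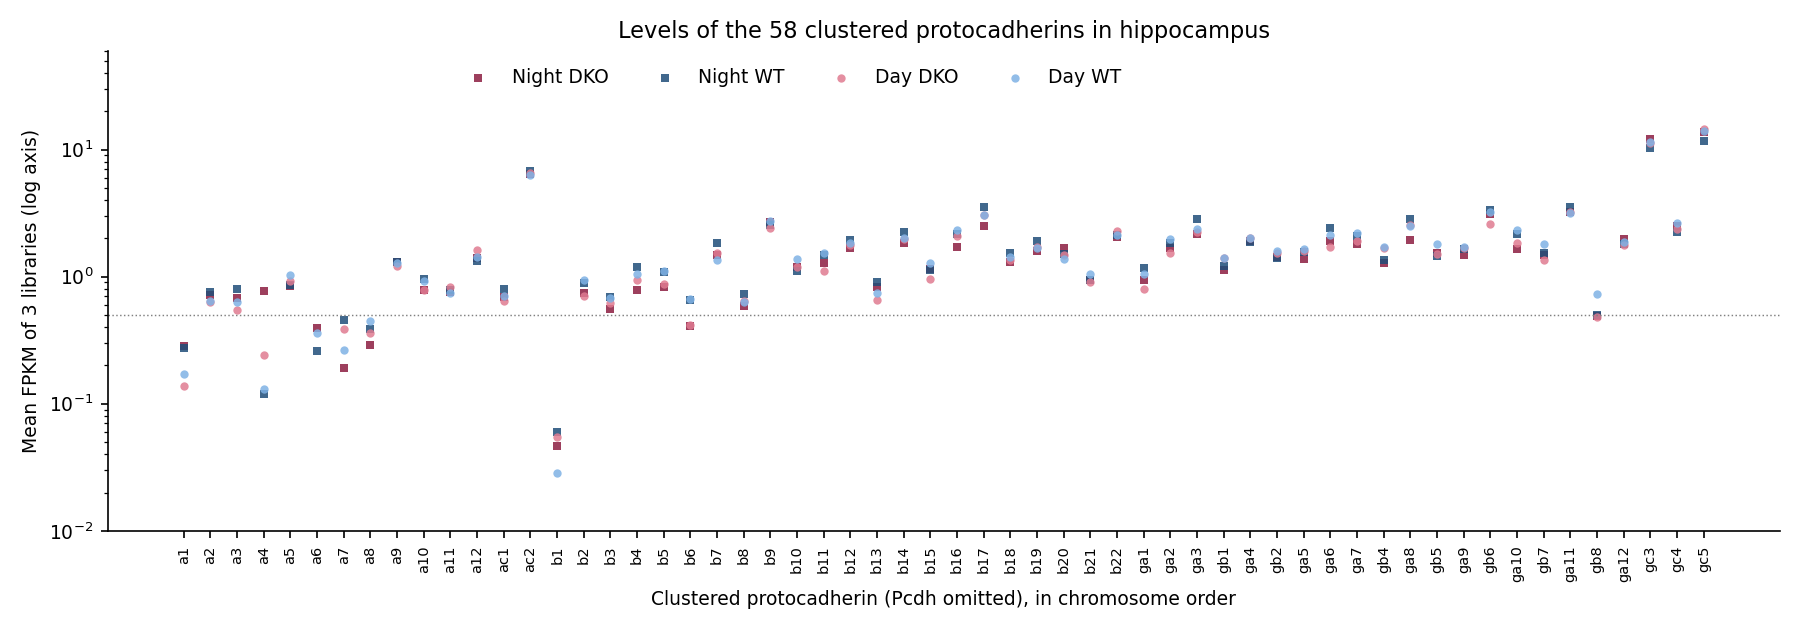
Mean FPKM of 3 libraries (log axis) for each of the 58 genes in chromosome order, with Night DKO, Night WT, Day DKO and Day WT as separate symbols and a dotted line at 0.5 FPKM. Pcdhac2, Pcdhgc3 and Pcdhgc5 stand above all others in each group, Pcdhb1 stands lowest, and the groups of Pcdha4 and Pcdha6 are spread further apart than those of most genes (the Day DKO mean of Pcdha6, at 0.000168 FPKM, is below the axis).

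How well a value can be assigned to 1 gene differs between clusters. In the GENCODE annotation of the same build (57 genes matched by name, Pcdha10 not), the constant exons hold 456 coding bases of every alpha gene and 372 of every gamma gene, 15.1% to 16.3% and 13.1% to 13.6% of the coding sequence. Beta genes share none. Counted in 50-base stretches of the transcript, a median of 95.5% was found in no other gene for beta, against 38.8% for alpha, 55.2% for gamma A, 48.7% for gamma B and 55.8% for gamma C-type. Pcdha4 had the lowest share, 2.54%. A fragment from a constant exon could have come from any gene of its cluster, and how the authors' tool divided such fragments is not stated in the labels.

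The tables also hold 3 RefSeq read-through genes that begin at an alpha exon and run to the end of the gamma cluster: Gm37013 (chromosome 18, 36952648 to 37841873) at Pcdha4, Gm38666 (36967631 to 37841873) at Pcdha6 and Gm38667 (36973802 to 37841873) at Pcdha7. Pcdha6 and Pcdha7 were named for that reason. Pcdha4 stood at 0.671, 1.02 and 0.603 FPKM in Night DKO, and at 0.000388, 0.358 and 1.31e-05 FPKM in Night WT. Gm37013 stood at 0.575, 0.606 and 0.554 FPKM in Night DKO, and at 1.252, 1.106 and 1.204 FPKM in Night WT. The libraries of both genotypes did not overlap for either gene, in opposite directions. The sum of Pcdha4 and Gm37013 was 1.25, 1.63 and 1.16 FPKM in Night DKO, and 1.253, 1.464 and 1.204 FPKM in Night WT, which overlapped.

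By day Pcdha4 was at 0.563, 0.165 and 5.52e-09 FPKM in DKO and at 0.393, 1.11e-06 and 3.97e-08 FPKM in WT. Gm37013 was at 0.778, 1.378 and 1.345 FPKM in Day DKO and at 1.15, 1.06 and 1.56 FPKM in Day WT. Over the 12 libraries the coefficient of variation was 109% for Pcdha4 and 32.5% for Gm37013, but 13.5% for their sum. Pcdha6 behaved alike: alone it had a coefficient of variation of 109%, Gm38666 had 50.5%, and their sum had 16.2%. For Pcdha7, Gm38667 and their sum the values were 62.1%, 25.9% and 13.5%. The sums were steadier than either gene of each pair.

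Pcdha4 and Pcdha6 were each below 0.001 FPKM, yet above 0, in 5 libraries; 39 genes of the whole table had such a value in any library. Values this small are estimates and not a fragment seen once. On the log2(FPKM + 1) scale used for all tests here, the difference of Pcdha4 between Night DKO and Night WT was 0.67 ± 0.18 (SE; limma, adjusted p = 0.298). With the read-through genes added to their alpha genes it was 0.019 (adjusted p = 0.978). This limit applies to every value of Pcdha4, Pcdha6 and Pcdha7 alone. It also applies to sums and shares that hold these genes without their read-through genes. The read-through genes end where the gamma cluster ends. Whether fragments of the gamma constant exons were divided between them and the gamma genes is not known.

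**Figure D2:**
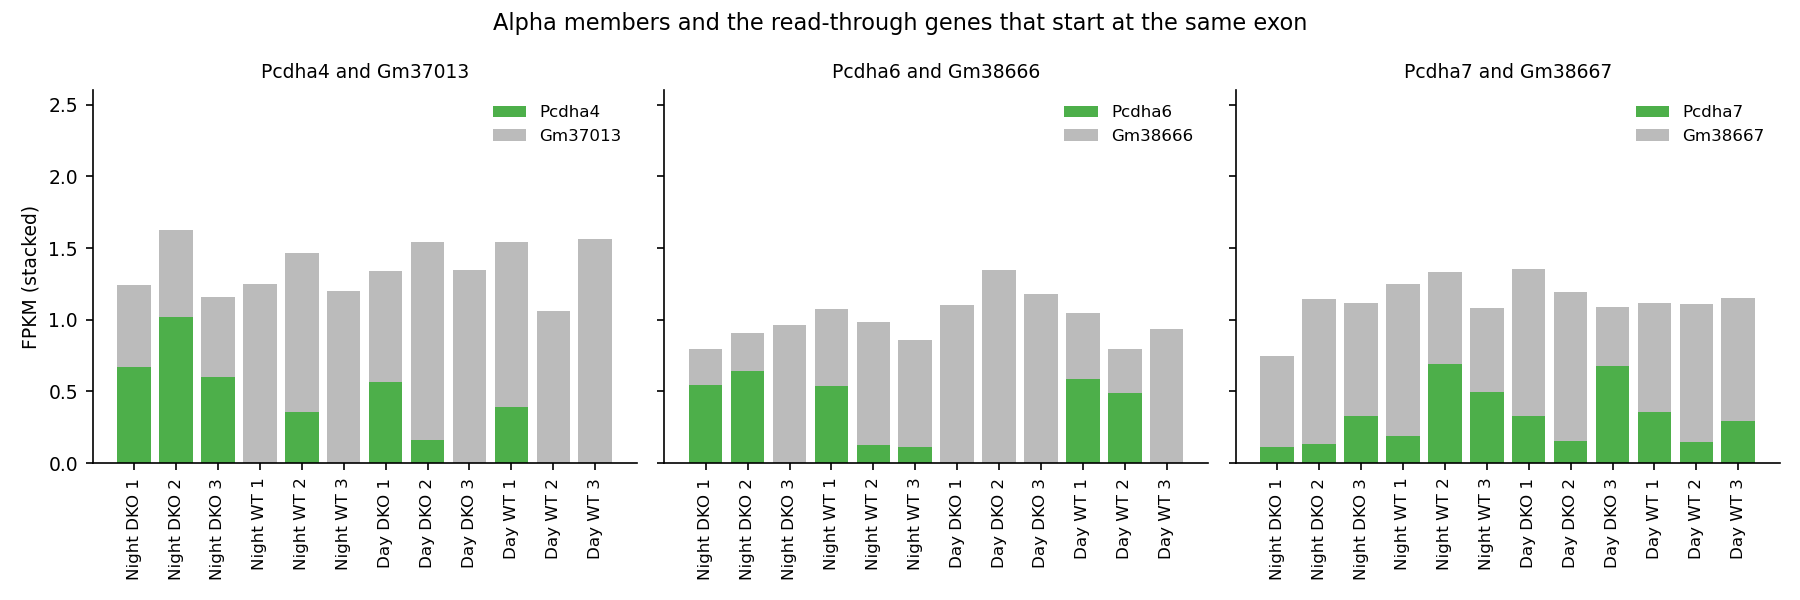
Stacked FPKM per library of Pcdha4, Pcdha6 and Pcdha7 (green) and of the read-through gene that starts at the same exon (grey), with libraries in the order Night DKO, Night WT, Day DKO and Day WT. The green and grey parts trade places between libraries, while the full height ranges from 1.06 to 1.63 FPKM for Pcdha4 with Gm37013.

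Summed over the 3 clusters, the alternate isoforms stood lower in DKO, while the C-type totals overlapped between genotypes. The 53 genes that are not C-type summed to 67.8, 71.1 and 67.5 FPKM in Night DKO and to 77.2, 80.2 and 74.1 FPKM in Night WT. By day they summed to 71.0, 71.2 and 67.8 FPKM in DKO and to 77.9, 73.1 and 78.1 FPKM in WT. The libraries of both genotypes did not overlap at either time. A sum over chosen genes is a description and was given no test. This one holds Pcdha4, Pcdha6 and Pcdha7 without their read-through genes. Because this is bulk tissue, fewer cells of a type and less RNA per cell cannot be told apart.

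By cluster, the beta total was 27.9 ± 1.70 FPKM in Night DKO and 32.3 ± 1.15 FPKM in Night WT (SD, n = 3 each), without overlap. By day it was 28.8 ± 0.822 FPKM in DKO and 31.0 ± 1.49 FPKM in WT, with overlap of 1 library on each side. The gamma A total was 22.1 ± 1.14 FPKM in Night DKO against 25.9 ± 2.01 FPKM in Night WT, and 23.0 ± 1.84 FPKM in Day DKO against 25.0 ± 0.439 FPKM in Day WT, without overlap at either time. Gamma B gave 10.5 ± 0.587 FPKM in Night DKO against 10.8 ± 0.312 FPKM in Night WT, which overlapped, and 10.6 ± 0.726 FPKM in Day DKO against 12.3 ± 0.603 FPKM in Day WT, which did not. Alpha totals overlapped at both times. They were 8.42 ± 0.716 FPKM in Night DKO against 8.27 ± 0.987 FPKM in Night WT. By day they were 7.69 ± 0.384 FPKM in DKO against 8.07 ± 0.378 FPKM in WT. These totals hold Pcdha4, Pcdha6 and Pcdha7 without their read-through genes, so no direction is read from the alpha means.

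Gamma C-type genes summed to 30.1, 31.1 and 24.3 FPKM in Night DKO and to 23.0, 26.4 and 23.5 FPKM in Night WT, which overlapped. By day they summed to 28.1, 30.0 and 26.1 FPKM in DKO and to 26.2, 28.4 and 29.9 FPKM in WT. As a share of the gamma total they made up 47.0%, 48.7% and 43.9% in Night DKO against 38.0%, 41.2% and 40.4% in Night WT, without overlap. The day shares were 44.6%, 46.0% and 46.0% in DKO and 40.8%, 44.0% and 44.3% in WT, also without overlap, by a narrower margin. Alpha C-type genes summed to 7.17 ± 0.337 FPKM in Night DKO against 7.57 ± 1.05 FPKM in Night WT, and to 7.13 ± 0.596 FPKM in Day DKO against 7.01 ± 0.532 FPKM in Day WT (SD, n = 3 each), with overlap at both times.

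**Figure D3:**
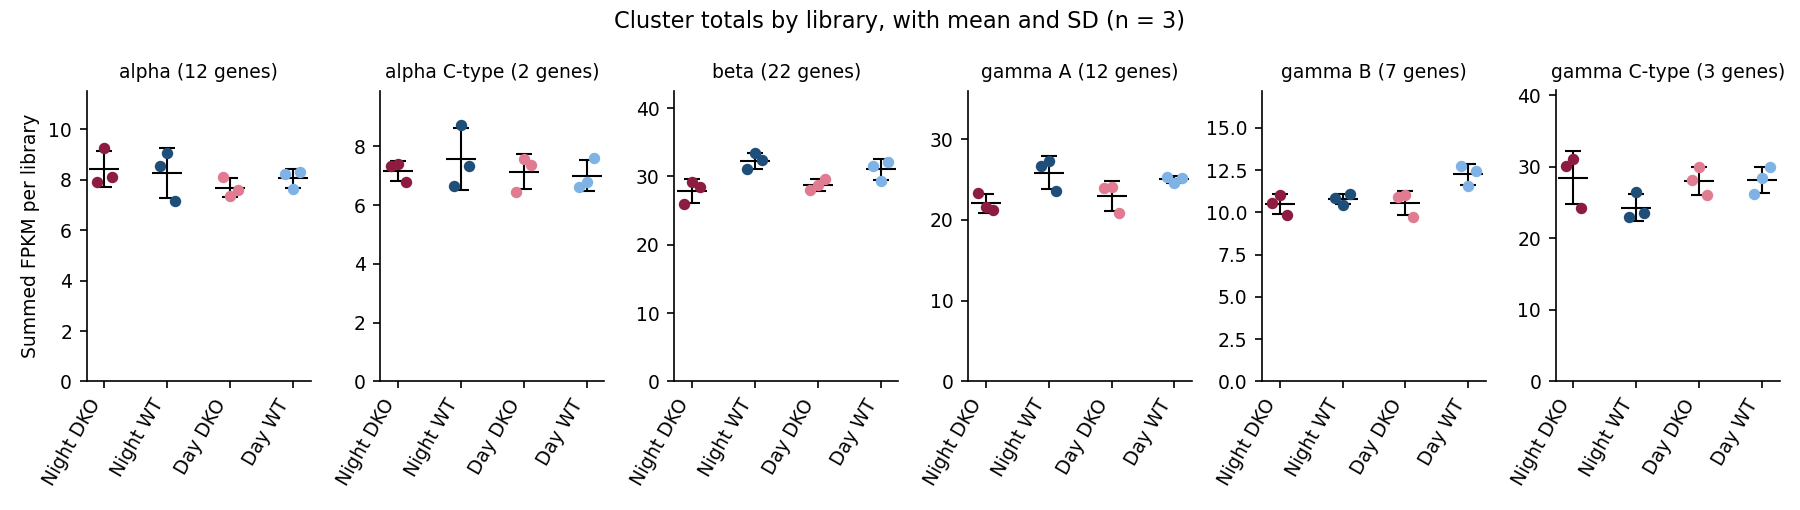
Summed FPKM per library for the 6 classes (points), with mean and SD of 3 libraries (black). The beta and gamma A totals of Night DKO lie below those of Night WT without overlap, while the gamma C-type mean of Night DKO is 28.5 FPKM against 24.3 FPKM in Night WT.

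Gene by gene, the differences between DKO and WT were small on the log2(FPKM + 1) scale. That scale shrinks relative differences at low FPKM, where most of these genes lie. Averaged over both times, 1 of the 54 tested genes passed the limma test at an adjusted p under 0.05, Pcdhga10, which was lower in DKO (1.88% of all 12689 genes tested were called, 0.875% in the lower direction). A share of 1.85% of these genes is close to that background. At an unadjusted p under 0.05 there were 16 of 54 (16.2% of all genes), 15 of them lower in DKO (6.52% of all genes). The 15 hold Pcdhb6, which entered the test mainly through its WT values. Taken singly, neither time gave a called gene. At night 0 of 54 were called by limma, where 0.0236% of all genes were, and 11 had an unadjusted p under 0.05 (9.18% of all genes), 9 of them lower (5.4% of all genes). Pcdha4 was among the 11, and it reached 0.5 FPKM in DKO libraries only. By day 0 of 54 were called, where 1.18% of all genes were, and 9 had an unadjusted p under 0.05 (17% of all genes), each of them lower (5.12% of all genes).

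The sign was less evenly divided. The difference was below 0 for 39 of 54 genes at night and for 42 of 54 by day, and for 43 of 54 when averaged. Over all genes tested, 53.8% were below 0 at night, 37.2% by day and 42.6% averaged. With the filter off, 42 of all 58 genes were below 0 at night and 44 of 58 by day. The share of all genes below 0 was not counted without the filter. Without it the median of the 58 was -0.080 at night and -0.047 by day, beside -0.0033 and 0.012 over all genes. The median difference of the 54 was -0.080 at night and -0.054 by day, beside medians of -0.0090 and 0.038 over all genes. The 2 times use separate libraries. A negative difference at both was seen for 31 of 54 (57.4%), against 23.1% of all genes, and a positive one at both for 4 of 54 (7.41%), against 32.1%. These joint counts largely follow from the sign counts at each time. They are not a separate result, and no repeat gene by gene is read from them. Across the 54 genes, day and night differences had a Pearson's r of 0.17 and a Spearman's rho of 0.11, as a description, since genes of 1 library share its depth and normalization.

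**Figure D4:**
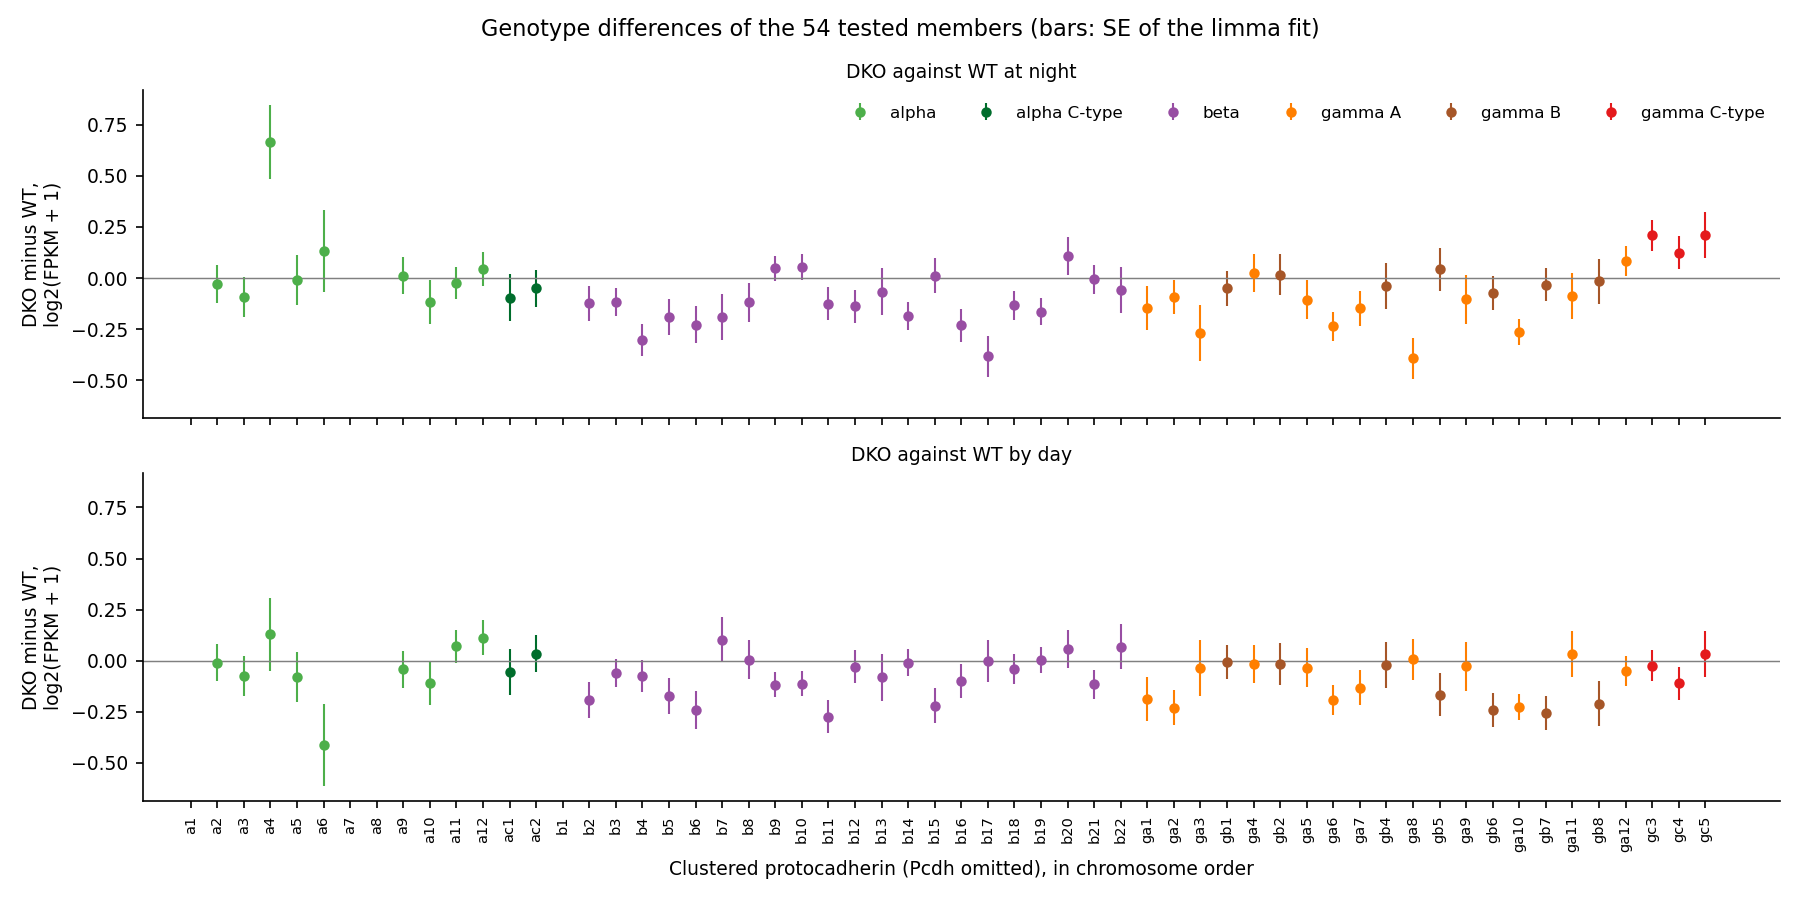
Difference of log2(FPKM + 1) between DKO and WT at night (top) and by day (bottom) for the 54 tested genes in chromosome order, coloured by class, with the SE of the limma fit; genes without a point did not pass the filter. Most points of beta and gamma A lie below 0 in both panels, the gamma C-type points lie above 0 at night, and Pcdha4 stands highest at night.

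Of the gamma A genes, Pcdhga10 was the member called. It stood at 1.81, 1.61 and 1.54 FPKM in Night DKO and at 2.25, 2.22 and 2.08 FPKM in Night WT. By day it stood at 1.81, 2.04 and 1.71 FPKM in DKO and at 2.38, 2.36 and 2.27 FPKM in WT. The 6 DKO libraries lay below the 6 WT libraries. Averaged over both times the difference was -0.24 ± 0.045 (SE; limma, adjusted p = 0.0204). With Night WT replicate 1 and Night DKO replicate 1 both left out it was -0.26 (adjusted p = 0.0451), and 1 gene was still called.

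The call for Pcdhga10 rested on single libraries, while its size changed little. Leaving out Night DKO replicate 2 gave an adjusted p of 0.0569, Night DKO replicate 3 gave 0.0539, Night WT replicate 1 gave 0.0568, Day DKO replicate 3 gave 0.0518 and Day WT replicate 2 gave 0.0523 (limma), while the difference stayed between -0.27 and -0.23 over the 12 such fits. With the microglial markers as a covariate, which themselves moved with genotype, it was -0.18 (adjusted p = 0.674).

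Pcdhga6, another gamma A gene, came next. It stood at 1.73, 2.05 and 1.95 FPKM in Night DKO and at 2.44, 2.41 and 2.44 FPKM in Night WT, without overlap. By day it stood at 1.62, 1.62 and 1.94 FPKM in DKO and at 2.07, 1.91 and 2.36 FPKM in WT, with 1 library of each genotype crossing. The averaged difference was -0.22 ± 0.051 (limma, adjusted p = 0.0534), which did not pass. It passed with median-of-ratios scaling (adjusted p = 0.0486).

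Pcdhga8 stood apart at night. It was at 1.95, 2.08 and 1.79 FPKM in Night DKO and at 3.10, 2.82 and 2.66 FPKM in Night WT, without overlap. By day it stood at 3.08, 2.69 and 1.93 FPKM in DKO and at 2.58, 2.57 and 2.41 FPKM in WT, with the WT libraries inside the DKO range. The night difference was -0.39 ± 0.10 (limma, adjusted p = 0.281), and the difference between both times had an adjusted p of 0.549, so neither passed. The remaining named gamma A genes, Pcdhga11, Pcdhga3 and Pcdhga1, overlapped between genotypes at night. By day Pcdhga1 stood at 0.852, 0.813 and 0.716 FPKM in DKO and at 0.927, 0.880 and 1.353 FPKM in WT, without overlap, a difference of -0.19 ± 0.11 (limma, adjusted p = 0.400) that did not pass. Pcdhga11 averaged 3.23 ± 0.276 FPKM in Night DKO and 3.54 ± 0.855 FPKM in Night WT. Of the 12 gamma A genes, 10 had a difference below 0 at night and 10 by day.

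In gamma B, 5 of 7 genes had a difference below 0 at night, with a median of -0.032, and 7 of 7 by day, with a median of -0.17. Pcdhgb6 stood at 2.997, 2.083 and 2.682 FPKM in Day DKO and at 3.29, 3.13 and 3.22 FPKM in Day WT, and Pcdhgb7 at 1.30, 1.57 and 1.17 FPKM in Day DKO and 1.81, 1.64 and 1.96 FPKM in Day WT. Both were without overlap by day, and both overlapped at night. The day differences were -0.24 ± 0.082 (adjusted p = 0.172) and -0.26 ± 0.083 (adjusted p = 0.146) in limma, so neither passed. The pseudogene Pcdhgb8 averaged 0.484 ± 0.0248 FPKM in Day DKO and 0.735 ± 0.302 FPKM in Day WT.

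Beta genes, the class whose values are least shared with other genes, were below 0 for 17 of the 21 tested at night and for 16 of 21 by day. None passed the limma test at either time. Pcdhb6 was the beta gene without overlap at both times. It stood at 0.416, 0.390 and 0.423 FPKM in Night DKO and at 0.871, 0.595 and 0.507 FPKM in Night WT. By day it stood at 0.398, 0.567 and 0.282 FPKM in DKO and at 0.585, 0.675 and 0.749 FPKM in WT. All 6 WT libraries but 1 DKO library reached 0.5 FPKM, so the gene entered the test mainly through its WT values. The averaged difference was -0.23 ± 0.065 (limma, adjusted p = 0.0892).

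Other beta genes stood apart at 1 time. Pcdhb11 was at 1.06, 1.13 and 1.11 FPKM in Day DKO and at 1.84, 1.51 and 1.29 FPKM in Day WT, a log2 difference by day of -0.27 ± 0.081 (limma, adjusted p = 0.123). In the night libraries it was at 1.14, 1.42 and 1.29 FPKM in DKO and at 1.42, 1.46 and 1.60 FPKM in WT, so that the genotypes overlapped only narrowly. Pcdhb4 was at 0.642, 0.814 and 0.897 FPKM in Night DKO and at 1.08, 1.26 and 1.26 FPKM in Night WT, a difference of -0.30 ± 0.077 (adjusted p = 0.274). Pcdhb4 overlapped by day. Pcdhb17, the beta gene of highest level, was at 2.06, 3.04 and 2.43 FPKM in Night DKO and at 3.51, 3.70 and 3.42 FPKM in Night WT, a difference of -0.38 ± 0.10 (limma, adjusted p = 0.298). By day Pcdhb17 averaged 3.05 ± 0.495 FPKM in DKO and 3.04 ± 0.183 FPKM in WT. Pcdhb16 was without overlap at night, at 1.63, 1.70 and 1.78 FPKM in DKO and 2.17, 2.11 and 2.25 FPKM in WT, and overlapped by day.

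Counted over classes, 13 of 54 tested genes (24.1%) lay wholly lower in DKO at night, where 9.48% of all genes did, and 10 of 54 (18.5%) by day, where 5.26% did. The 13 were 10 beta and 3 gamma A genes, and the 10 were 5 beta, 3 gamma A and 2 gamma B genes. Pcdhb6 and Pcdhga10 were in both counts, 3.7% of the 54 against 1.25% of all genes. Nothing is read from this shared count, since Pcdhb6 entered the test mainly through its WT values. For the same reason Pcdhb6 adds no support within the counts of 13 and 10. No alpha gene was in either count. None lay wholly higher at both times (1.57% of all genes). Pcdha4 and Pcdhgc3 lay wholly higher in DKO at night (3.7%, against 5.73% of all genes), and none did by day (14.3% of all genes). Nothing is read from this count of genes wholly higher at night either, since the 4 libraries in which Pcdha4 reached 0.5 FPKM were all DKO.

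**Figure D5:**
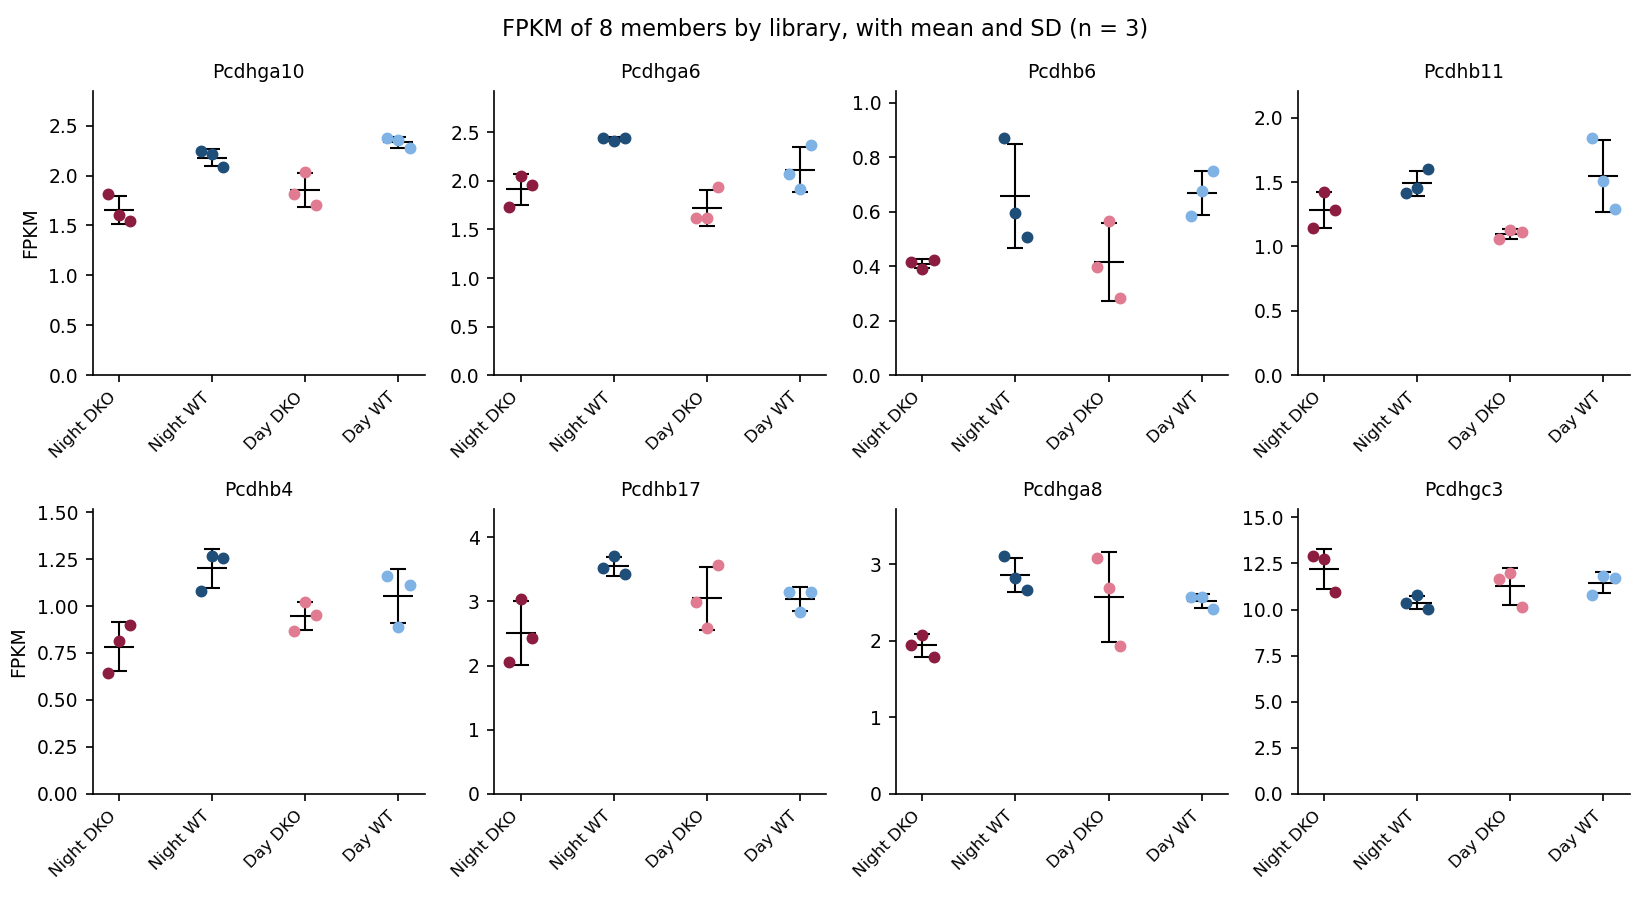
FPKM per library of 8 genes (points), with mean and SD of 3 libraries (black), in Night DKO, Night WT, Day DKO and Day WT. Pcdhga10 and Pcdhb6 are lower in DKO without overlap at both times, Pcdhga8 and Pcdhb17 at night only, and Pcdhgc3 is higher in Night DKO than in Night WT.

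Among the C-type genes, Pcdhgc3 stood at 12.9, 12.8 and 10.9 FPKM in Night DKO and at 10.4, 10.8 and 10.0 FPKM in Night WT, without overlap. By day it stood at 11.68, 11.98 and 10.11 FPKM in DKO and at 10.8, 11.8 and 11.7 FPKM in WT. The night difference was 0.21 ± 0.075 (limma, adjusted p = 0.427), which did not pass. Pcdhgc5 averaged 13.8 ± 2.41 FPKM in Night DKO and 11.7 ± 1.34 FPKM in Night WT, with overlap, and 14.4 ± 0.887 FPKM in Day DKO and 14.1 ± 1.26 FPKM in Day WT. Pcdhgc4 averaged 2.52 ± 0.302 FPKM in Night DKO and 2.23 ± 0.229 FPKM in Night WT. Pcdhac2 averaged 6.48 ± 0.250 FPKM in Night DKO and 6.77 ± 0.917 FPKM in Night WT, and Pcdhac1 averaged 0.691 ± 0.251 FPKM and 0.802 ± 0.191 FPKM in those groups. The alpha C-type share, taken without the read-through genes, was 46.0% ± 1.87 in Night DKO and 47.8% ± 3.58 in Night WT.

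Among alpha genes no tested gene passed at either time. Pcdha12, the highest alternate alpha gene, averaged 1.40 ± 0.111 FPKM in Night DKO and 1.329 ± 0.1996 FPKM in Night WT, and 1.64 ± 0.203 FPKM in Day DKO against 1.44 ± 0.178 FPKM in Day WT. Pcdha9 averaged 1.31 ± 0.156 FPKM in Night DKO and 1.30 ± 0.227 FPKM in Night WT, and Pcdha5 averaged 0.843 ± 0.278 FPKM and 0.852 ± 0.256 FPKM in the same groups. Alpha genes lay on both sides of 0: 5 of the 9 tested were below 0 at night and 6 of 9 by day. Pcdha1, which did not pass the filter, averaged 0.286 ± 0.0906 FPKM in Night DKO and 0.274 ± 0.0790 FPKM in Night WT. Pcdhb1 averaged 0.0464 ± 0.0133 FPKM in Night DKO and 0.0600 ± 0.0526 FPKM in Night WT.

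No clustered protocadherin was called between night and day. In DKO, 0 of 54 genes were called by limma between night and day, where 0.299% of all genes were, and 5 had an unadjusted p under 0.05 (15.1% of all genes). Pcdha4 was among these 5, and it reached 0.5 FPKM in DKO libraries only. In WT, 0 of 54 were called, where 1.67% of all genes were, and 4 had an unadjusted p under 0.05 (22.3% of all genes). Averaged over genotypes 0 of 54 were called, where 6.07% of all genes were, and 4 had an unadjusted p under 0.05 (26.2% of all genes). Differences were above 0 for 26 genes and below 0 for 28 in the averaged comparison, while 69.4% of all genes were above 0. With median-of-ratios scaling the split was 14 above and 40 below, so the balance of signs over time depends on the scaling.

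Pcdhgb4 had the smallest p for time averaged over genotypes. It stood at 1.39, 1.16 and 1.32 FPKM in Night DKO and at 1.90, 2.01 and 1.18 FPKM in Day DKO. In WT it stood at 1.40, 1.13 and 1.55 FPKM at night and at 1.92, 1.58 and 1.64 FPKM by day, without overlap. The averaged difference was -0.21 ± 0.080 (limma, adjusted p = 0.112); with Day DKO replicate 3 left out it was -0.29 (adjusted p = 0.0266). Pcdhgb1 came next, at -0.15 ± 0.060 (adjusted p = 0.132). Pcdhb16 was at -0.13 ± 0.058 (adjusted p = 0.185), and with Day WT replicate 2 left out at -0.18 (adjusted p = 0.0442). Pcdhga6 had the opposite sign, at 0.12 ± 0.051 (adjusted p = 0.166).

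Within WT, Pcdhb10 stood at 1.13, 1.08 and 1.09 FPKM at night and at 1.48, 1.26 and 1.38 FPKM by day, without overlap, a difference of -0.18 ± 0.063 (limma, adjusted p = 0.134). Pcdhb7 stood at 1.57, 2.06 and 1.90 FPKM in Night WT and at 1.16, 1.40 and 1.53 FPKM in Day WT, also without overlap, a difference of 0.27 ± 0.11 (adjusted p = 0.181). The gamma C-type genes were all below 0 in WT: Pcdhgc5 averaged 11.7 ± 1.34 FPKM in Night WT and 14.1 ± 1.26 FPKM in Day WT, a difference of -0.25 ± 0.11 (limma, adjusted p = 0.213). Of the 54 genes, 6 lay wholly higher at night in WT (11.1%, against 24.3% of all genes) and 5 wholly lower (9.26%, against 4.37%). In DKO, 4 lay wholly higher at night (7.41%, against 12.9% of all genes) and 2 wholly lower (3.7%, against 6.44%). Nothing is read from the DKO count of genes wholly higher. It holds Pcdha4, which reached 0.5 FPKM in DKO libraries only.

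The genotype difference was not shown to depend on time. The interaction gave 0 of 54 called genes by limma, where 0% of all genes were called, and 3 of 54 had an unadjusted p under 0.05, where 8.66% of all genes did. Pcdhga8 (-0.40 ± 0.14, adjusted p = 0.549), Pcdhb17 (-0.38 ± 0.14, adjusted p = 0.561) and Pcdhgc3 (0.23 ± 0.11, adjusted p = 0.573) were these. All 3 gamma C-type genes had a positive interaction, with a median of 0.23 beside -0.046 over all genes tested. These 2 time comparisons and 2 genotype comparisons share libraries, so their values stand side by side only.

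The spread between replicates, given as the median SD of log2(FPKM + 1) within groups, is set beside that of other genes of the same mean level. From 1 to 2 FPKM it was 0.105 for 20 clustered protocadherins against 0.106 for 1774 other genes, and from 2 to 4 FPKM it was 0.104 for 13 against 0.0988 for 2458. From 0.5 to 1 FPKM it was 0.118 for 16 against 0.108 for 1225, and from 4 to 16 FPKM it was 0.122 for 3 against 0.0906 for 4844. The widest gap was from 0.1 to 0.5 FPKM, at 0.209 for 5 genes against 0.0849 for 2046 others, and Pcdha4 (0.265) and Pcdha6 (0.297) were among those 5. Pcdhb1 averaged below that range.

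Of 20 listed chromatin and DNA methylation factors, among them Ctcf, cohesin subunits and the repressor Smchd1, 19 were tested and 0 were called by limma for genotype at night, by day or averaged. Their median averaged difference was -0.027. Of 17 listed proteases and signalling partners, Psen2 was the gene called for genotype. Of 10 non-clustered delta protocadherins, Pcdh8, an activity-induced protocadherin that drives the uptake of N-cadherin, was called higher. It stood at 14.57, 13.91 and 13.96 FPKM in Night DKO and at 11.2, 10.7 and 9.99 FPKM in Night WT. By day it stood at 17.8, 18.3 and 21.6 FPKM in DKO and at 11.9, 12.1 and 13.5 FPKM in WT, for a difference of 0.58 by day (limma, adjusted p = 0.00982) and of 0.48 when averaged (adjusted p = 0.00146); at night it was 0.38 (adjusted p = 0.194). Of 25 listed genes that flank the clusters, 23 were tested, and Hars, a histidine-tRNA ligase, was called higher in DKO when averaged (0.26, adjusted p = 0.0307). Of 13 classical cadherins and catenins 0 were called for genotype. The smallest averaged p among the uncalled lists belonged to Rest (-0.085, adjusted p = 0.331) and Cdh4 (0.20, adjusted p = 0.135). Between night and day averaged over genotypes, the flanking genes Apbb3, Hdac3, Ndfip1 and Ndufa2 were called higher at night. The GTPase Rac1 and the catenin Ctnna2 were also called higher, Pcdh8 was called lower (-0.31, limma, adjusted p = 0.00925), and 0 chromatin factors were called. Of all genes, 6.07% were called here and 69.4% lay above 0. The median of all genes was 0.049, and 0.0031 with median-of-ratios scaling, under which these calls are not reported.

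Single markers of several cell types were called for genotype when averaged over both times. The 9 microglial markers summed to 135.2 to 274.9 FPKM in Night DKO against 131.5 to 147.5 FPKM in Night WT, and to 196.6 to 220.0 FPKM in Day DKO against 118.9 to 132.2 FPKM in Day WT; 6 of 9 were called higher when averaged. The 7 excitatory neuron markers summed to 612.1 to 653.1 FPKM in Night DKO against 581.4 to 649.9 FPKM in Night WT, and to 647.4 to 740.1 FPKM in Day DKO against 594.4 to 656.1 FPKM in Day WT; 1 of 7, Neurod2, was called higher. The 7 astrocyte markers summed to 410.0 to 496.7 FPKM in Night DKO against 386.3 to 427.4 FPKM in Night WT, which overlapped, and to 435.3 to 491.2 FPKM in Day DKO against 378.3 to 399.7 FPKM in Day WT, which did not; 1 of 7, Gfap, was called higher (0.79, limma, adjusted p = 0.029). Of 8 myelin markers 1 was called lower (Opalin), and their sums overlapped at both times, at 357.9 to 459.1 FPKM in Night DKO against 447.3 to 525.8 FPKM in Night WT, and 321.5 to 400.6 FPKM in Day DKO against 395.5 to 434.6 FPKM in Day WT. Of 10 endothelial and mural markers 3 were called lower (Acta2, Myh11, Tagln), and of 7 blood markers 3. The 16 choroid plexus markers summed to 79.5 to 1890 FPKM in Day DKO against 1188 to 2934 FPKM in Day WT, with 0 called. Fits with a marker covariate were run for microglia and for choroid plexus. With the choroid plexus covariate the averaged difference of Pcdhga10 was -0.26 (limma, adjusted p = 0.0364), and the microglial fit is given with that gene. The part of the other markers in the protocadherin values was not tested.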

How the data were processed

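RNA of 12 hippocampal libraries (4 groups of 3) was analysed. Per the labels' protocols, stranded libraries were built from total RNA depleted of ribosomal RNA. The authors deposited 1 table of FPKM per library with 21878 genes; the unit was read from the values. The build was GRCm38.p6, per the submitters' processing notes. Aligner, quantifier, annotation release and read depth: not given in the sources used here. Symbols of 27 genes turned into dates by a spreadsheet were restored from gene IDs.

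Values were taken as log2(FPKM + 1). The 12689 genes with at least 0.5 FPKM in at least 3 libraries were fitted with limma 3.58.1 (R 4.3.3), with 1 mean per group over all 12 libraries and an intensity trend. P-values were 2-sided, adjusted over all genes by Benjamini-Hochberg and called under 0.05. There were 7 comparisons: genotype at night, by day and averaged, time in DKO, in WT and averaged, and the interaction. Named genes were the 5 C-type genes, the 3 highest and the lowest of each other class, called genes and the 4 with the smallest p in each comparison (32 genes); genes named beyond these were chosen after their values were seen. Data were simulated for genotype by day over 12657 genes. Of 100 genes changed by a log2 of 0.5, 74 were recovered, and of 100 changed by 1, 97 were, with 5 false calls. The changed genes were drawn from all tested genes, with independent noise. The day differences of the tested protocadherins ran from -0.41 to 0.13, so recovery at their levels and sizes was not measured. The gene set and lists were chosen with earlier results of these data known. Shared exons were counted in GENCODE vM21. Python 3.11.15 was used for the remaining steps.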

Additional observations from a re-analysis of the deposited data

How the results depend on the processing

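Alternatives covered the pseudocount, the filter, the scaling, the fit, covariates and each library left out. The covariate of microglial markers, the joint removal of Night WT replicate 1 and Night DKO replicate 1, and the merging of read-through genes were chosen after seeing the data. Counts of called genes were 0 for genotype at night, genotype by day, time in DKO, time in WT and the interaction under all alternatives run. For genotype averaged over both times the count of 1 became 2 (Pcdhga10 and Pcdhga6) with median-of-ratios scaling, with the replicate block, without an intensity trend and with quality weights. It became 0 with no filter (Pcdhga10, adjusted p = 0.0502) and with the microglial covariate, and ranged from 0 to 1 with single libraries left out. For time averaged over both genotypes the count of 0 ranged from 0 to 1 with single libraries left out. Same-numbered libraries deviated together at a correlation of -0.12 to 0.25 over 18 pairs. Differently numbered libraries of separate groups did so at -0.20 to 0.22 over 36 pairs. Not every same-numbered pair was over 0.1, so the numbers were not taken to pair the libraries. The 3 same-numbered pairs of Day DKO with Night WT were at 0.168, 0.247 and 0.171. These groups are not compared directly, but they enter both averaged comparisons with opposite signs. They are at most a weak hint of pairing, since differently numbered pairs reached 0.22. The replicate block moved no other count of called protocadherins. Differences that changed sign were the interaction of Pcdhga10 (0.0053 with median-of-ratios scaling, 0.00063 with the choroid plexus covariate and -0.077 to 0.011 with single libraries left out, the highest without Day DKO replicate 2, against -0.035) and Pcdha4 between night and day in DKO (-0.044 with read-through genes merged, against 0.52). The difference of cluster totals between Night WT and Day WT became -0.673 FPKM for beta, -0.767 FPKM for gamma A and -2.17 FPKM for gamma B with median-of-ratios scaling (against 1.27, 0.817 and -1.45 FPKM). For alpha C-type in Day DKO against Day WT, the mean log2 difference in place of the sum was -0.011, against 0.126 FPKM. The cause of these changes was not tested, except that merging changes Pcdha4 by its construction. Unknown depth limits what can be said of genes under 0.5 FPKM.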
